A study of Mus musculus with 2 samples.

Results

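The nonsense-mediated mRNA decay (NMD) factors described here are 7 genes, Upf1, Upf2, Upf3a, Upf3b, Smg1, Smg5 and Smg6, taken by exact symbol from a deposited table of 44787 mouse genes. Each symbol matched 1 row. Their values were compared between hindlimb muscle of an SRSF2 flox/flox mouse sample (the control library) and hindlimb muscle of an SRSF2 flox/flox MyoD-Cre sample (the knockout library). Both groups share the floxed Srsf2 alleles, and MyoD-Cre, which expresses the recombinase in the myogenic lineage, is present in the knockout alone. Cells outside that lineage keep Srsf2, and effects of the Cre allele and of Srsf2 loss cannot be told apart in this design. The sources used here give neither ages nor the number of animals behind each library. With 1 library in each group there are no replicates and hence no p-values, and "higher" and "lower" are statements on these 2 libraries.

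NMD degrades mRNAs on which translation ends too early. UPF1, an ATP-dependent RNA helicase, meets the terminating ribosome. UPF2 links it to UPF3A or UPF3B, which contact the exon junction complex left upstream of spliced junctions, so a junction that remains downstream of a stop codon marks the mRNA. The kinase SMG1 then phosphorylates UPF1, and SMG5 and the endonuclease SMG6 dock on phosphorylated UPF1 and lead to cleavage and decay of the RNA. Genes of serine- and arginine-rich (SR) splicing proteins, Srsf2 among them, use this route to limit their own mRNAs through poison exons or spliced untranslated ends, and mRNAs of several NMD factors are themselves NMD substrates in mammalian cells. UPF3A is the weaker of the UPF3 paralogs in NMD and has been described as an antagonist of the pathway in some mouse tissues.

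The feature that marks an NMD substrate is shown here by the stops of the transcripts that GENCODE M21 (GRCm38) places in the NMD class for Srsf2 and for 3 of the 7 factors, Smg1, Smg5 and Smg6. Each line gives the last 45 coding bases in lower case and the stop codon in capitals, 5′ to 3′ on the transcript.
Srsf2-202: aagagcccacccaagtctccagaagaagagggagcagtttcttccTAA
Smg5-202: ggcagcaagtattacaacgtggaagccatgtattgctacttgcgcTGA
Smg6-202: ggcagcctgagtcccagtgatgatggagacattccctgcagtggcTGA
Smg1-204: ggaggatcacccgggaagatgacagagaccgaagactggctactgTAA
The stop of Srsf2-202 (chr11:116852028-116852030, minus strand) is the one its coding transcript also uses, and 3 exon junctions follow it, the last 217 bases downstream. Another NMD class transcript of Srsf2, Srsf2-204, has the same bases up to the same stop and is not printed. It has an incomplete coding start and 2 junctions after the stop, the last 113 bases downstream. In Smg5-202 the stop (chr3:88347595-88349111, plus strand) is itself split by an intron, with 3 further junctions after it, the last 434 bases downstream. Smg6-202 stops at chr11:74990094-74990096 (plus strand), ahead of 9 junctions, and Smg1-204 stops at chr7:118210780-118210782 (minus strand), ahead of 59 junctions. The annotated coding starts of the 3 NMD-factor transcripts are incomplete, and Smg1-204 carries a tag for a lack of support in this organism. In the longest coding transcripts of the same genes, Smg5-201, Smg6-201 and Smg1-201, no junction follows the stop, whereas 1 junction follows that of Srsf2-201, 7 bases downstream. An NMD class transcript was annotated for 28.6% of 11007 measured mRNA genes. The deposited values are per gene, so the coding and the NMD class transcripts of a gene cannot be separated in any value below.

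All 7 factors were expressed in both libraries and all 7 had a nominally higher value in the knockout library, but by modest ratios of 1.01 to 1.40. The same direction held for 73.0% of all 13175 measured genes, those that reached 1 FPKM in either library, where FPKM stands for fragments per kilobase of gene, scaled to the depth of the library. Their summed level was 108 FPKM in the control and 129 FPKM in the knockout, a ratio of 1.19. The median measured gene had a ratio of 1.17, the common shift of these libraries. The sum, to which Upf3a with a ratio of 1.11 adds most, lay close to it. The median ratio of the 7 factors was 1.27, further above it. Smg1, Smg6 and Upf2 lay above that common shift and Upf1 below it.

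Of the 7 factors, 0 were higher and 0 were lower by a rule of size that asks for 1 or more, in either direction, on the log2(FPKM + 1) scale. By that rule 2.68% of measured genes were higher and 0.744% lower. A 1.5-fold rule was likewise passed by 0 factors in each direction, and by 9.15% of measured genes upward and 2.91% downward. The differences of the factors ran from 0.01 to 0.43, with a median of 0.32, beside a median of 0.18 over all measured genes, and 5 of 7 lay above the latter. Whole reads could be recovered from the FPKM of all 7 factors, and 6 had a 95% counting interval of the ratio that lay above 1, against 49.8% of the 10293 measured genes with such reads. None had an interval below 1, against 12.3% of those genes. Relative to the median gene, 3 of the 7 had an interval above 1 and 1 an interval below it, where the shares over all genes with recovered reads were 26.5% and 26.6%. Intervals cover counting error only, and the spread between animals is not known.

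**Figure D1:**
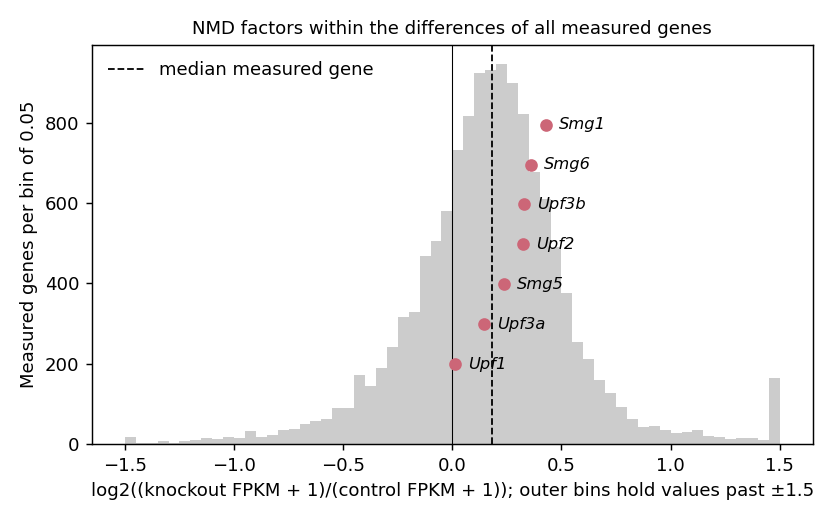
Grey bars count the measured genes by their difference between knockout and control on the log2(FPKM + 1) scale, and points place the 7 NMD factors on the same horizontal axis (their height only separates the names). All 7 lie between 0.01 and 0.43, within the bulk of the distribution, and the dashed line is the median measured gene at 0.18.

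Upf1, the helicase at the centre of the pathway (chr8:70331522-70353273, minus strand), was at 8.10 FPKM in the control and 8.19 FPKM in the knockout. These are the closest values of any factor, a ratio of 1.01 with an interval of 0.932 to 1.10 from 1144 and 1217 recovered reads. Its difference stood at percentile 28.6 of the measured genes, and its ratio relative to the median gene was 0.868, with an interval of 0.800 to 0.941. The last 67 bases of its span are shared with Gdf1 and Cers1 on the other strand, which were at 0.564 and 0.565 FPKM in the control and 0.261 and 0.262 FPKM in the knockout. Whether the counting used strand is not stated in these sources.

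Among the adaptors, Upf2 (chr2:5951469-6056703, plus strand), which bridges UPF1 and the UPF3 proteins, was at 11.9 FPKM in the control and 15.1 FPKM in the knockout. Its ratio of 1.27 (1.20 to 1.36) stayed above 1 relative to the median gene, at 1.09 (1.03 to 1.16). Upf3a (chr8:13785233-13798268, plus strand) had the highest level of the 7, at 42.9 FPKM in the control and 47.6 FPKM in the knockout. That deposited span ends before the annotated stop of its longest coding transcript (chr8:13798472-13798474), so the level may not cover the whole transcript. The ratio of Upf3a was 1.11 (1.04 to 1.18) and, relative to the median gene, 0.953 (0.895 to 1.01). The value as deposited was thus higher, and the relative one was not separated from the common shift. Upf3b (chrX:37091834-37110322, minus strand), the paralog with the stronger part in NMD, was at 20.0 FPKM in the control and 25.4 FPKM in the knockout, a ratio of 1.27.

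The interval of Upf3b was wide, 1.01 to 1.60, because the smallest whole reads that give its values are 131 and 175, with a gene length of 246 bases. Its longest coding transcript has 2344 bases, between 9 and 10 times that length, and with 9 times the reads (1179 and 1575) the interval is 1.18 to 1.37. Relative to the median gene its ratio was 1.09, with an interval of 0.864 to 1.38 from the smallest reads and of 1.01 to 1.18 from 9 times those reads, which would make it the fourth factor above the common shift. The level of Upf3a over that of Upf3b was 2.15 in the control and 1.88 in the knockout. The change of this quotient, 0.874, had an interval of 0.686 to 1.11 and was not separated from 1.

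Smg1 (chr7:118131312-118243637, minus strand), the kinase that phosphorylates UPF1, showed the largest ratio of the 7. It was at 6.69 FPKM in the control, the lowest level of any factor there, and at 9.34 FPKM in the knockout. The ratio of 1.40 (1.33 to 1.47) rests on 2789 and 4099 recovered reads, the largest numbers among the factors. Its difference of 0.43 stood at percentile 80.9 of the measured genes. Relative to the median gene the ratio was 1.20 (1.14 to 1.26).

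The factors that act on phosphorylated UPF1 were both higher as deposited. Smg6, the endonuclease that cuts near the premature stop (chr11:74925872-75164448, plus strand), was at 7.83 FPKM in the control and 10.3 FPKM in the knockout, a ratio of 1.32 (1.22 to 1.42) and, relative to the median gene, 1.13 (1.05 to 1.22). Smg5, which leads on to decapping and deadenylation (chr3:88340699-88362338, plus strand), was at 10.9 FPKM in the control and 13.0 FPKM in the knockout. Its ratio was 1.19 (1.11 to 1.28), and relative to the median gene 1.02 (0.951 to 1.10), so Smg5 moved with the typical gene. The span of Smg6 shares 965 bases with that of Gm12335, a noncoding RNA gene on the other strand, at 0.206 FPKM in the control and 0.390 FPKM in the knockout.

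**Figure D2:**
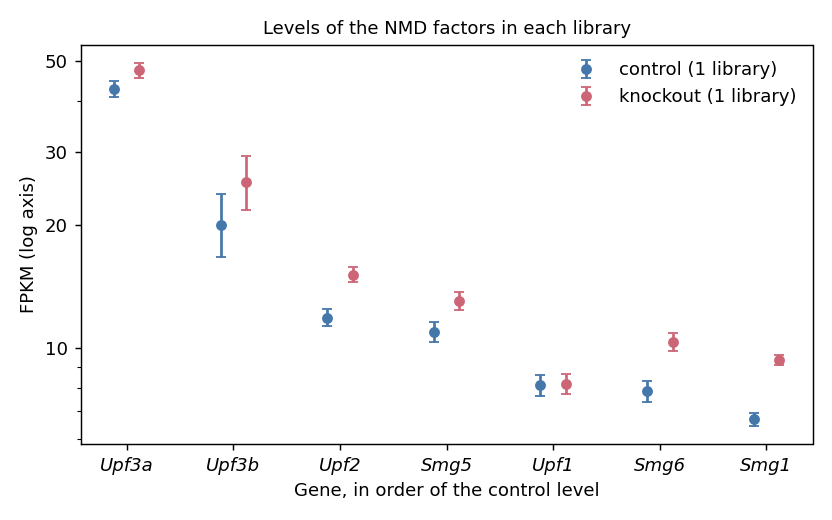
Points give the FPKM of each NMD factor in the control library (blue) and in the knockout library (red) on a log axis, with bars for the 95% counting interval, in order of the control level. Upf3a is highest at 42.9 and 47.6 FPKM, the intervals of Upf1 overlap at 8.10 and 8.19 FPKM, and Smg1 goes from 6.69 to 9.34 FPKM.

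Levels per length followed the order Upf3a, Upf3b, Upf2, Smg5, Upf1, Smg6 and Smg1 in the control, over a 6.41-fold range. The neighbours Upf2 and Smg5, and the neighbours Upf1 and Smg6, had overlapping counting intervals there. In the knockout the first 4 places were the same, and Smg6 and Smg1 came before Upf1, which was last. No neighbours overlapped in that library, where the range was 5.81-fold. By level among all measured genes, Upf3a stood at percentile 92.6 in the control and Smg1 at percentile 58.9.

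Quotients of 2 levels within a library do not depend on how the libraries are scaled. Upf1 had the lowest ratio of knockout to control among the factors, so every quotient over it was bound to rise. The level of Smg1 over that of Upf1 was 0.826 in the control and 1.14 in the knockout, a change of 1.38 with a counting interval of 1.26 to 1.52. That of Smg6 over Upf1 went from 0.967 to 1.26, a change of 1.31 (1.17 to 1.46), and both were above Upf1 in the knockout. In the control Smg1 was below Upf1, and Smg6 was not separated from it. Upf2 over Upf1 was 1.46 in the control and 1.84 in the knockout, a change of 1.26 (1.14 to 1.40), and Smg5 over Upf1 was 1.35 and 1.59, a change of 1.18 (1.06 to 1.32). For Upf3a and Upf3b over Upf1 the changes of 1.10 (0.991 to 1.22) and 1.26 (0.981 to 1.61) had intervals that include 1. Over all 21 pairs of factors, the interval of the change excluded 1 for 9, and 4 of these involve Upf1. Of the 15 pairs without Upf1, 5 had an interval that excluded 1. These intervals use the smallest reads of Upf3b and are not adjusted for the number of pairs. The share over pairs of all measured genes was not computed, so these counts cannot be called particular to the NMD factors.

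**Figure D3:**
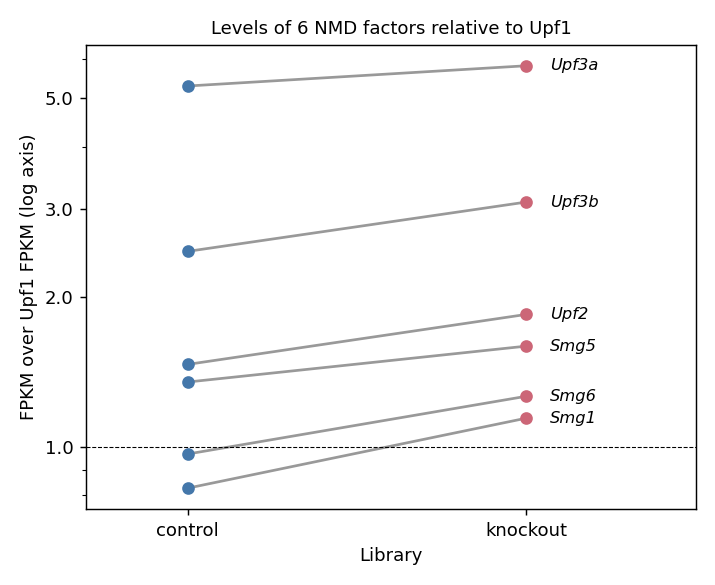
Each line joins the FPKM of 1 NMD factor divided by the FPKM of Upf1 in the control library (left) and in the knockout library (right), on a log axis, and the dashed line marks the level of Upf1. Every line slopes upward, as it must, because the shared denominator Upf1 had the lowest ratio of knockout to control among the factors. Smg6 (0.967 to 1.26) and Smg1 (0.826 to 1.14) cross the dashed line, although Smg6 and Upf1 had overlapping counting intervals in the control.

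In gene structure, which the choice by name did not use, the 7 genes varied widely. Their longest coding transcripts have 9 to 63 exons, and 6 of 7 have more exons than the median of 9 over measured mRNA genes, as do 48.8% of those genes. Smg1, with a coding length of 10974 bases (3658 codons), is at percentile 99.6 of that length, and Upf3a, with 1266 bases, at percentile 44.5. Long 3′ untranslated regions are a known feature of some NMD substrates. Of the 7 factors, 4 have one longer than the median measured mRNA gene. The 4233 bases of Smg1 stood at percentile 94.4, whereas the 958 bases of Upf1 stood at percentile 49.9 and the 719 bases of Upf3a at percentile 40.8. The stop of 6 of the 7 coding transcripts lies in the last exon, as it does for 96.2% of measured mRNA genes, and that of Upf1 lies 3 bases before the last junction.

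Promoter sequences were available for all 7 factors (RefSeq, GRCm38.p6). The windows, from 250 bases before to 50 after the start, had a GC content of 58.7% for Upf3b up to 72.3% for Upf1, beside a median of 61.3% over 8736 promoters of measured mRNA genes, and no TATAAA, which 7.31% of those promoters hold, was found in any. The 250 bases before the start are shown for the factors that hold any of the 3 least common of 8 motifs searched on both strands, in capitals. These are TCGCGAGA in Upf3b and Smg5, AAGATGGC, from the motif of YY1, in Upf3b, and GCATGCGC, from the motif of NRF1, in Upf1. TCGCGAGA was added to the search after the sequences had been read.
Upf1, chr8:70353280-70353529, minus strand: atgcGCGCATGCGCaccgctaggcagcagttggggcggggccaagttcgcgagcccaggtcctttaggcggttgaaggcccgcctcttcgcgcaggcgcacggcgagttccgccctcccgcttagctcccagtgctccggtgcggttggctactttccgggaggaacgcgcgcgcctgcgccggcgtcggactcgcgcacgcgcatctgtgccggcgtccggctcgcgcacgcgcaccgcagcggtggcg
Upf3b, chrX:37110323-37110572, minus strand: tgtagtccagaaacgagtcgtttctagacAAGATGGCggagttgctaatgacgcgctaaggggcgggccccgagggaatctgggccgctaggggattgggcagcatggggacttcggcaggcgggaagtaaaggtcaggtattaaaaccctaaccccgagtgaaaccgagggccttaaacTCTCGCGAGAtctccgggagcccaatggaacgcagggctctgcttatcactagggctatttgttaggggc
Smg5, chr3:88336010-88336259, plus strand: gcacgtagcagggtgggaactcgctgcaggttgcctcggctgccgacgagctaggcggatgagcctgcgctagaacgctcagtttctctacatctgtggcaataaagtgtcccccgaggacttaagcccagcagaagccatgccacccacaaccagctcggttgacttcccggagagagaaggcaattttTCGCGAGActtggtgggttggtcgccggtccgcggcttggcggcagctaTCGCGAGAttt
GCATGCGC in Upf1 and TCGCGAGA in Upf3b match on both strands, and the matches overlap to give 1 longer run of capitals. TCGCGAGA was present in 2.44% of the 8736 promoters, AAGATGGC in 4.85% and GCATGCGC in 5.68%. The GC box letters GGGCGG were in 6 of 7 factors and in 66.0% of promoters, CCAAT in 3 and in 38.2%, TGACG in 1 (Upf3b) and in 32.2%, and the ETS letters CCGGAAG in 0 and in 18.3%. The deposited start of Smg5 lies inside the RefSeq gene, downstream of the promoter shown. No deposited value bears on binding at these letters.

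Other NMD factors were mixed around the common shift. All 7 given here were measured, the median difference was 0.26, and 4 lay above the median gene. By the rule of size 0 were higher and 0 lower, beside 2.68% and 0.744% of all measured genes. Smg9 and Smg8, which form a complex with SMG1, were at 4.02 and 2.45 FPKM in the control and 5.71 and 3.16 FPKM in the knockout, ratios of 1.42 (1.22 to 1.65) and 1.29 (1.08 to 1.55). Dhx34, a helicase that promotes UPF1 phosphorylation, was at 1.01 FPKM against 1.56 FPKM, and Nbas, which acts with it in NMD, at 1.72 FPKM against 2.26 FPKM, control first. Pnrc2, which links UPF1 to decapping, was at 28.3 and 28.5 FPKM, and the ATPases Ruvbl1 and Ruvbl2 had ratios of 1.06 and 1.08.

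The exon junction complex, which marks spliced junctions for UPF3, had the highest median of the NMD-related lists, 0.43. Of its 10 genes, 10 had ratios above 1, as did 73.0% of all measured genes, and 8 lay above the median gene. By the rule of size 1 of its 10 genes was higher and 0 were lower as deposited, beside 2.68% and 0.744% of all measured genes. Under each of 4 other scalings of the libraries 0 were higher. That gene was Magohb, one of a pair of genes for the core subunit MAGOH, at 3.57 FPKM in the control and 9.24 FPKM in the knockout, a ratio of 2.59 (2.01 to 3.37) from 84 and 229 reads. Its difference was 1.16 as deposited and 0.96 to 0.97 under the other scalings. Its near-identical partner Magoh was at 103 FPKM in the control and 142 FPKM in the knockout, so Magohb stayed a small part of the pair, and reads shared between such copies could have been divided unevenly. Pym1, which takes the complex apart, had a ratio of 1.46 (1.005 to 2.15) from smallest whole reads of 48 and 74. As for Upf3b, the true reads may be a multiple of these, which would narrow the interval. At the lower end were Rnps1, a peripheral component that activates NMD, at 29.8 and 32.4 FPKM in control and knockout, Pnn at 100.6 and 113 FPKM, and Eif4a3, the RNA-clamping core helicase, at 29.4 and 33.7 FPKM.

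Termination factors, which release the peptide and meet UPF1, did not move as 1. Etf1 was at 35.9 FPKM in the control and 44.8 FPKM in the knockout, a ratio of 1.25 (1.19 to 1.30). Gspt1 was at 15.3 and 14.4 FPKM, a ratio of 0.941 with an interval of 0.872 to 1.01, and Gspt2 at 1.67 and 2.01 FPKM. The interval of Gspt1 included 1 as deposited and lay below the ratio of the median gene, 1.17. The Staufen proteins, which recruit UPF1 to another decay route, had ratios of 1.10 for Stau1 and 1.17 for Stau2.

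Genes of decapping, deadenylation and exonucleolytic decay had a median difference of 0.28 over 17 measured genes, with 12 above the median gene. By the rule of size 0 were higher and 0 lower, beside 2.68% and 0.744% of all measured genes. Highest by difference on the log2(FPKM + 1) scale were Dis3, the catalytic exosome subunit, at 12.4 FPKM in the control and 18.4 FPKM in the knockout (ratio 1.48, interval 1.38 to 1.59), Cnot1, the scaffold of the deadenylase complex, with a ratio of 1.37 (1.30 to 1.44), and its subunit Cnot8, with a ratio of 1.36. Lowest by the same measure were Edc3, a decapping activator, at 2.18 FPKM in the control and 1.97 FPKM in the knockout, Lsm1 at 3.18 and 3.05 FPKM, and Exosc10 at 15.9 and 16.4 FPKM. The intervals of these last 3 included 1 as deposited. Those of Edc3 (0.737 to 1.11) and Exosc10 (0.956 to 1.10) lay below the ratio of the median gene, 1.17. That of Lsm1 (0.721 to 1.28) included it.

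RNAs widely described as NMD-sensitive had a median difference of 0.31 over 11 measured genes of 12 listed, with 7 above the median gene. By the rule of size 0 were higher and 0 lower, beside 2.68% and 0.744% of all measured genes. Snhg15, a snoRNA host gene listed as Gm11974, was at 2.60 FPKM in the control and 5.60 FPKM in the knockout, a ratio of 2.16 (1.48 to 3.19) from 41 and 93 reads. Its difference was 0.87, and 1.08, past the rule, with a pseudocount of 0.1 FPKM in place of 1. Atf3 and Atf4, transcription factors of the integrated stress response, were at 3.43 and 62.3 FPKM in the control and 6.42 and 90.7 FPKM in the knockout, and both also respond to stress. Gadd45b, Gadd45a and Ddit3, which are also stress-induced, had ratios of 0.895 (0.687 to 1.17), 1.08 (0.957 to 1.23) and 1.10, the last without recovered reads. The ratios thus ran from 0.895, not separated from 1, to above 2 within a single list. Levels at the gene do not separate transcription from decay.

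**Figure D4:**
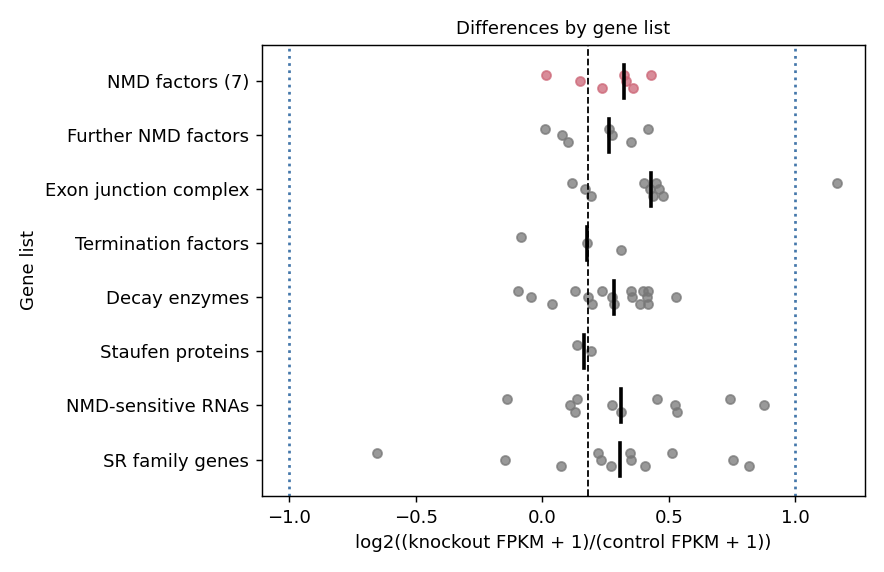
Each point is 1 measured gene at its difference between knockout and control on the log2(FPKM + 1) scale, by gene list, with the 7 NMD factors in red. Black bars are list medians, the dashed line is the median measured gene at 0.18 and the dotted lines mark the rule of size at 1 and -1, which Magohb alone among these genes passes as deposited and with a pseudocount of 1. It does not pass under 4 other scalings (0.96 to 0.97).

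Srsf2 itself was at 31.1 FPKM in the control and 19.4 FPKM in the knockout, in the direction of the labels, with a ratio of 0.624 (0.583 to 0.666). The 12 genes of the SR family list, Srsf2 included, had a median difference of 0.31, with 0 genes past the rule of size. Of their ratios, 10 were above 1 and 2 below 1, where 73.0% of all measured genes had a ratio above 1. The libraries differed in tissue content beside these values. All 10 keratinocyte markers were higher as deposited, 9 of them by the rule of size, and their summed level was 12.5 FPKM in the control and 1957 FPKM in the knockout, where 4 and 10 of them reached 1 FPKM. None was listed at 0 in either library. Of 8 adipocyte markers 7 were measured and 6 were higher by the rule, with sums of 299 and 698 FPKM, and of 3 erythroid markers 2 were higher by it. Over all measured genes, 2.68% were higher and 0.744% lower by the rule. The 8 general skeletal muscle markers, all present in both libraries, and the 9 fast fibre markers all had ratios below 1, with sums of 17920 and 11183.5 FPKM and of 10511 and 6087 FPKM. The part of this tissue content in the values of the NMD factors was not tested, and in bulk tissue fewer cells of a type and less RNA per cell cannot be told apart.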

How the data were processed

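The authors deposited FPKM values per gene, normalised to gene length and library size, for 1 control and 1 knockout library. Per the submitters' processing notes, Bowtie 0.12.2 and mm9 were named, without a role. Positions in the deposited table fit GRCm38, where 99.8% of 19368 mRNA symbols shared with GENCODE M21 overlap their annotated gene, all 7 NMD factors among them. No source used here gives the counting tool, the annotation or the use of strand. Other numbers, deposited by the authors as mapping tables, give 69422626 and 76702198 reads, of which 81.4% and 80.0% were mapped (control first).

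No rescaling was applied in the main values. Differences are knockout minus control in log2(FPKM + 1), which understates low genes. The authors' FPKM hold whole reads: the commonest ratio of low genes (1134 genes) is that of 26659452 to 28060573, which fixes the relative depth. The smallest whole reads giving both values (relative tolerance 2e-14) and a whole gene length were taken where that length was at most 1.5 times the longest annotated transcript, which gave reads for 10293 of 13175 measured genes (78.1%). Exact Clopper-Pearson 95% intervals of ratios, exact Poisson intervals of levels and exact conditional intervals of quotients came from those reads. Without molecular identifiers, reads are not counts of independent molecules, and these are intervals of counting alone. The recovery of reads, the intervals of ratios and the rule of size were also tried on simulated data, and the other steps were not.

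The members, lists and markers were chosen with earlier results of these data known. Named genes are the 7 factors, Srsf2, every member of lists of 8 or fewer and the 3 highest and 3 lowest differences of longer lists. Of the SR list only Srsf2 is named. Zfas1, Snhg15 and Pym1 were found under older symbols. Of the list of other NMD factors, 1 gene is not reported here and is left out of its counts. Protein sequences were not used here. Other pseudocounts, filters, a 1.5-fold rule and 4 scalings were tried. Computation used scipy 1.17.1, numpy 2.4.6 and pandas 2.3.3 under Python 3.11.15, and plots matplotlib 3.10.9.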

Additional observations from a re-analysis of the deposited data

How the results depend on the processing

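No paired analysis was possible because neither group has a second library, and for the same reason none could be left out. The counts of factors past the rule of size stayed at 0 in both directions under pseudocounts of 0.1 and 0.5 FPKM, no filter, a filter of 5 FPKM, a 1.5-fold rule and all 4 scalings. The largest ratio of a factor was 1.40 and the lowest level 6.69 FPKM (Smg1 in the control). Pseudocounts and filters could therefore not have altered these counts. Scaling was the choice that mattered. Of the 7 factors, 6 had a counting interval above 1 and 0 below 1 as deposited, against 3 above and 1 below under median-of-ratios scaling, TMM scaling, scaling without the 50 most abundant genes and scaling by the median ratio of mRNA genes. The median difference of 0.32 was 0.12 under each of the first 3 (0.118, 0.122 and 0.119) and 0.11 (0.113) under the last. All of these divide the knockout values by 1.16 to 1.17, which shifts every gene alike, and Upf1 and Upf3a then had values below 0. Among 38 named genes, 12 changed sign under each scaling, none of them past the rule of size. Another pseudocount or filter cannot change the sign of a difference, so those settings do not test it. In the lists of NMD-related and SR genes, Magohb passed the rule of size as deposited and under both pseudocounts and both filters, and under no scaling (0.967, 0.971, 0.968 and 0.963), and Snhg15 passed it with a pseudocount of 0.1 FPKM alone (1.08). Among the 7 factors, Upf3b had the widest interval of the ratio, because its reads are known only up to a multiple of the smallest.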

Other observations

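Genes with an annotated NMD class transcript could be expected to be the group on which a change in NMD is read, although levels per gene sum all transcripts. Of measured mRNA genes, 3153 have such a transcript in GENCODE M21 and 7854 have none. The median differences were 0.18 and 0.19 on the log2(FPKM + 1) scale, and the median ratios 1.168 and 1.170. By the rule of size, 29 genes with such a transcript were higher (0.920%) and 7 lower (0.222%), against 235 (2.99%) and 33 (0.420%) of genes without one. The median coding length was 1557 bases with such a transcript and 1335 without, the median number of exons 12 and 8, and the median control level 5.42 and 5.49 FPKM. Whether NMD activity differed between the libraries was not tested.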
